A study of Mus musculus with 22 samples.

Results

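The genes described here are 6 members of the S100 calcium-binding family, S100a1, S100a4, S100a6, S100a10, S100a11 and S100a13, measured in mouse embryonic stem cells. They were found by gene symbol in the probe tables of both array designs. Each had 1 probe, the same one on both designs, so 6 of 25697 probes on MouseRef-8 and 6 of 45281 on MouseWG-6 belong to them. Of the 6 genes, 5 passed the filter on dim probes on each design (of 9207 and 11003 genes that passed), and S100a4 did not. The set was chosen on values of these arrays: the moves of S100a1 and S100a13 that depend on the line, and the responses of S100a6 to the inhibitors. Those values are therefore given as descriptions without a test. Tests are given for S100a10 and S100a11, and for S100a6 between lines and for the difference between lines in its response.

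The series holds 22 samples, each on 1 Illumina bead array, from 4 embryonic stem cell lines of the mouse. All were kept without serum in N2B27 medium with LIF, a cytokine that sustains self-renewal. R2i medium added PD0325901 (PD), an inhibitor of the kinase MEK, and SB431542 (SB), which blocks the kinases of the Activin, Nodal and TGF-beta receptors. The 2i medium added PD and CHIR99021 (CHIR), an inhibitor of the kinase GSK3. PD medium and SB medium held that inhibitor alone. Lines B20 and B18, both C57BL/6, had been derived with PD and SB and kept so for more than 10 passages. They were then moved for 10 passages to the other media. Each gave 3 R2i, 2 2i and 3 PD arrays on MouseRef-8. Lines C17 (BALB/c) and B4 (C57BL/6) gave 1 R2i, 1 PD and 1 SB array each on MouseWG-6.

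Values are log2 signals after background correction and quantile normalisation within each design. They can be compared between arrays of one design for one gene, but not between genes or designs. A probe counts as detected at a detection p below 0.01. Between 42.1% and 45.4% of probes were detected on the B20 and B18 arrays, and between 30.0% and 31.7% on the C17 and B4 arrays. The stem cell markers Pou5f1, Nanog, Sox2, Zfp42, Esrrb and Klf4 were detected on both designs. Of 10 feeder fibroblast markers, 8 were not detected on any array, Col1a1, Col1a2 and Col3a1 among them. The other 2 were Thy1 and Acta2. Thy1 was detected on 13 of 16 B20 and B18 arrays and on 6 of 6 C17 and B4 arrays. It was 0.88 higher in 2i than in PD in B20 and B18, a call made for 23.6% of all genes. An Acta2 probe was detected on 3 of 6 C17 and B4 arrays, with a highest log2 signal of 7.12. B20 and B18 each lay on a chip of their own, so line and chip cannot be told apart. Each medium held the same positions on both of these chips, so medium and position on the chip cannot be told apart. R2i was the medium of derivation of B20 and B18, so that an inhibitor and the move out of R2i cannot be told apart either. The PD and SB samples titled C17 carry B4 in another label field. Over the 100 genes that parted the R2i arrays of both lines most, the array titled C17 PD resembled C17 R2i more than B4 R2i in 90 and the array titled C17 SB in 96. The arrays titled B4 PD and B4 SB did so in 7 and 26. The titles were followed.

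S100 proteins are small calcium-binding proteins of the EF-hand type that mostly act as dimers. On binding calcium they expose a surface that holds partner proteins, among them annexins, cytoskeletal proteins and ion channels. Many S100 genes lie together on chromosome 3 in the mouse. In many tissues their expression changes with differentiation, growth state and signalling, and some family members are also released from cells.

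S100a1 and S100a13 lie head to head. In the RefSeq table of build GRCm38.p6 the start of S100a1 is at position 90514330 of chromosome 3 on the minus strand. The start of S100a13 is at 90514435 on the plus strand, 105 bases away, so that 204 bases of their 300-base promoter windows are shared. The 104 bases between both starts (chr3:90514331-90514434, plus strand, RefSeq) are printed because they are upstream sequence of both genes, with CpG in capitals.
S100a1/S100a13: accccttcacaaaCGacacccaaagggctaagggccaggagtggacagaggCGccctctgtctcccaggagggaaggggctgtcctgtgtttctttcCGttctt
The stretch had 58.7% G or C and 3 CpG. Windows of 300 bases were searched on both strands for the AP-1 letters (TGANTCA), and for the letters of a TCF/LEF motif (ATCAAAG). Also searched were the GC box (GGGCGG), the TATA box written as TATAAA, the SMAD motif written as CAGACA, and the STAT motif with its free middle (TTCNNNGAA). None of these was found in the windows of S100a1, S100a13 and S100a6. S100a4, S100a6 and S100a11 follow further along chromosome 3. S100a10 was not matched in the promoter table. The 250 bases before the start of S100a11 (chr3:93520246-93520495, plus strand, RefSeq, GRCm38.p6) are printed because they held the most matches, with the motifs in capitals.
S100a11: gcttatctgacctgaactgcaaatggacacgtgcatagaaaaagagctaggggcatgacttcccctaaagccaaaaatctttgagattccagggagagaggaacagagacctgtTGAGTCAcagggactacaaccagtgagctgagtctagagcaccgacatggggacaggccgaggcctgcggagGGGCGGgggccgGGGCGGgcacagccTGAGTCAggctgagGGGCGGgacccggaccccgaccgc
They held 2 AP-1 matches, at -136 and -38 from the start, and 3 GC boxes, at -64, -52 and -24. Of 32851 promoter windows, 7.8% held the AP-1 letters and 35.7% a GC box.

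S100a1, known in heart muscle for its action on the ryanodine receptor and the calcium pump of the sarcoplasmic reticulum, was far lower in R2i than in PD in one line and not in the other. In B20 it measured 7.34, 7.19 and 7.51 in R2i, 9.55 and 9.27 in 2i, and 10.15, 10.18 and 8.96 in PD. In B18 it measured 7.68, 8.07 and 8.02 in R2i, 9.08 and 8.95 in 2i, and 8.13, 8.02 and 7.95 in PD. In B20 all R2i arrays lay below all 2i and PD arrays, while in B18 R2i and PD overlapped and 2i stood above both. R2i minus PD was -2.42 (SE 0.23) in B20, which is 5.35-fold, and -0.11 (SE 0.23) in B18. The SE rests on a spread shared by both lines, while the SD in PD was 0.69 in B20 and 0.09 in B18. R2i minus 2i was -2.06 (SE 0.25) in B20 and -1.09 (SE 0.25) in B18. The step from PD to PD with CHIR had opposite signs: 2i minus PD was -0.36 (SE 0.25) in B20, where the groups overlapped, and 0.98 (SE 0.25) in B18, where they did not.

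By mean, S100a1 was highest in B20 PD, followed by B20 2i, B18 2i, B18 PD, B18 R2i and B20 R2i. The neighbours B20 PD and B20 2i overlapped, as did B18 PD and B18 R2i. The B20 line thus held both the highest and the lowest group mean, 9.76 ± 0.69 in PD (SD, n = 3) and 7.34 ± 0.16 in R2i (SD, n = 3). The third B20 PD array, at 8.96, lay below the other 2, and without it the difference between lines in R2i minus PD was -2.71 rather than -2.31. In C17 S100a1 measured 5.89 in R2i, 6.91 in PD and 7.19 in SB. In B4 it measured 5.94 in R2i, 6.57 in PD and 6.83 in SB. Both lines ran in the same order there, with R2i lowest and SB highest. R2i minus PD was -1.02 in C17 and -0.63 in B4.

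**Figure D1:**
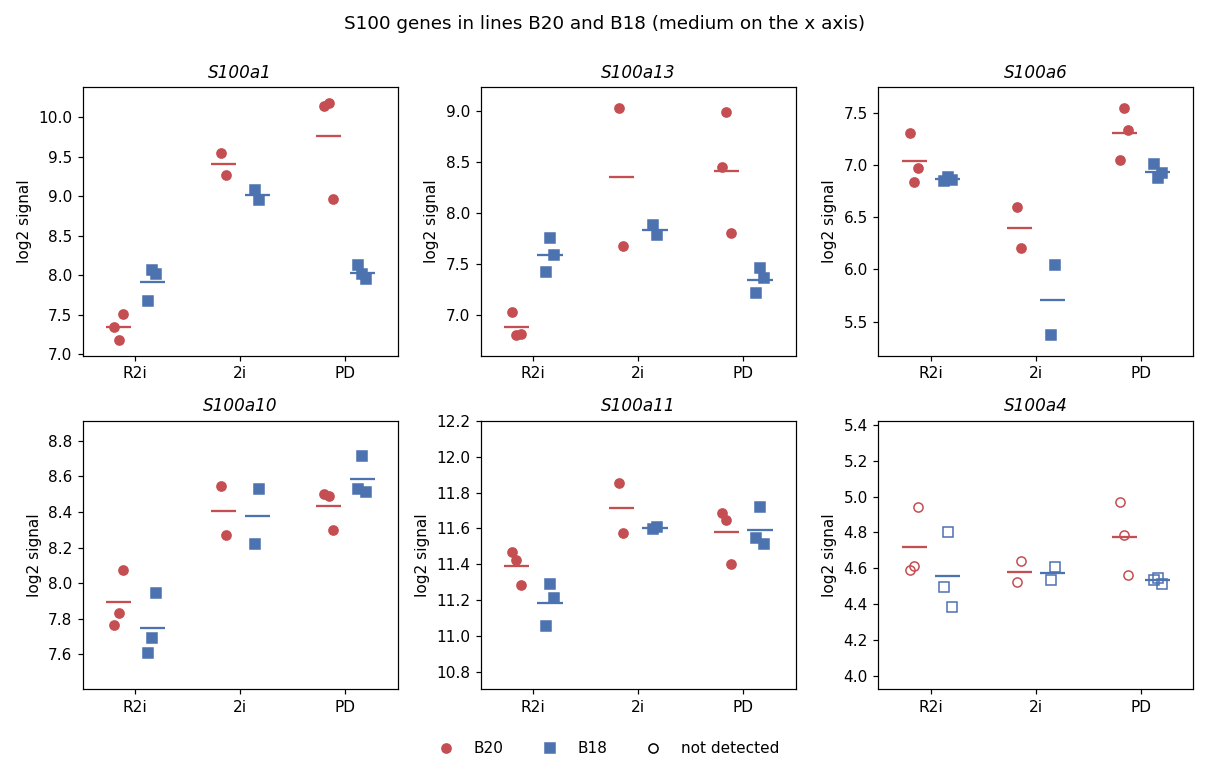
Log2 signal of the 6 S100 genes on each B20 (circles) and B18 (squares) array by medium, with 1 panel per gene and a scale of its own for each panel. Points are arrays, lines are means of 2 or 3 arrays, and open symbols are not detected. S100a1 and S100a13 spread apart by medium in B20 more than in B18, S100a6 is lowest in 2i, S100a10 and S100a11 are lowest in R2i, and S100a4 is not detected.

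S100a13, which is known to take part in the release of FGF1 by a route outside the classical secretory pathway, moved much like its neighbour. In B20 it measured 7.03, 6.80 and 6.82 in R2i, 9.03 and 7.68 in 2i, and 8.45, 8.98 and 7.80 in PD. In B18 it measured 7.42, 7.76 and 7.59 in R2i, 7.89 and 7.79 in 2i, and 7.22, 7.46 and 7.36 in PD. The B20 R2i arrays were below every other array, and the B18 R2i and PD arrays overlapped. R2i minus PD was -1.53 (SE 0.27) in B20, which is 2.88-fold, and 0.24 (SE 0.27) in B18. The 2 B20 2i arrays lay far apart, so that the sign of 2i minus PD over both lines (0.22) rests on them: it was -0.12 without the first and 0.55 without the second. R2i minus 2i was -1.47 (SE 0.31) in B20 and -0.25 (SE 0.31) in B18. These SEs share a spread over both lines, while the SD in 2i was 0.96 in B20 and 0.07 in B18. Without the first B20 2i array R2i minus 2i over both lines was -0.52, and without the second -1.20, against -0.86 with both.

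By mean, S100a13 was highest in B20 PD, then B20 2i, B18 2i, B18 R2i, B18 PD and B20 R2i. The first 3 of these overlapped in turn, B18 R2i overlapped B18 PD, and B20 R2i stood apart at the low end. In C17 S100a13 measured 8.90 in R2i, 9.87 in PD and 9.03 in SB. In B4 it measured 8.53 in R2i, 8.92 in PD and 8.81 in SB. PD was the highest medium in both lines, and C17 was above B4 in each medium, by 0.95 in PD. Across the 16 B20 and B18 arrays S100a13 and S100a1 correlated at r = 0.90, a description over arrays that share 2 chips and 6 groups. The correlation was 0.92 over the 8 B20 arrays and 0.72 over the 8 B18 arrays. Over the 6 C17 and B4 arrays it was 0.52.

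Markers of other cell types also moved by line and medium. Of 7 trophoblast markers, 5 were detected on at least 1 B20 or B18 array, and Cdx2 and Elf5 were not. Sums of a marker list are on the linear scale over all its genes, undetected ones included. Each value holds the normalisation offset of 16, so that a part of each sum is background. The summed signal of these 7 was 341 to 374 in B20 R2i, 312 to 447 in B20 2i and 409 to 531 in B20 PD. In B18 it was 486 to 576 in R2i, 353 to 358 in 2i and 426 to 554 in PD. Like S100a1 and S100a13, the sum was lower in R2i than in PD in B20, while in B18 R2i and PD overlapped. Krt8 had the highest signal of these markers (median 7.88) and weighs most in the sum. The markers did not move together. In B18 R2i minus PD was -0.14 for Krt8 and -0.26 for Eomes. It was 0.60 for Krt7, 0.65 for Krt18 and 0.92 for Gata3, which was detected on 7 of 16 arrays. In 2i the sum was unlike S100a1 and S100a13. In B18 the sum was lowest in 2i, where both genes were highest. In B20 its 2i range overlapped R2i, while both genes lay lower on every R2i array than on every 2i array. The difference between lines in R2i minus PD was called for 1 of 5 measured trophoblast markers (Krt7, -0.81, limma adjusted p = 0.0057). It was also called for 1 of 6 stem cell markers (Sox2, -0.63, adjusted p = 0.027), where 4.27% of all genes were called. Of 3 measured primitive endoderm markers Gata6 was called, but it was detected on the B18 R2i arrays and on no other B20 or B18 array. Gata6 thus passed the filter only through the group where it was high, so that no p is given. The part of these markers in the S100a1 and S100a13 values was not tested.

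**Figure D2:**
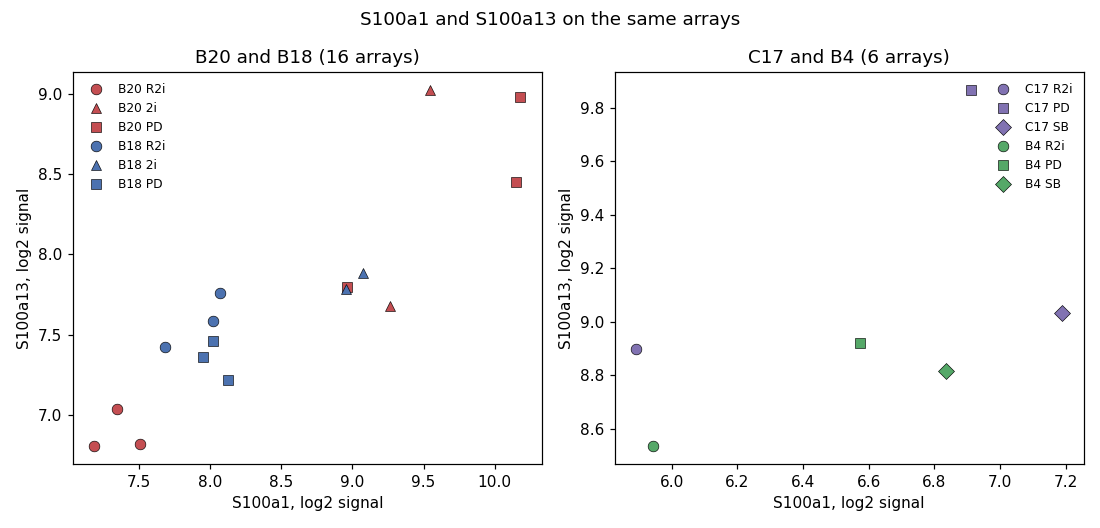
Log2 signal of S100a13 (vertical axis) against that of S100a1 (horizontal axis) on the same arrays, for B20 and B18 on the left and C17 and B4 on the right, with 1 point per array, coloured by line and shaped by medium. The 3 B20 R2i arrays sit at the low end of both genes, and 2 of the 3 B20 PD arrays with the first B20 2i array sit at the high end.

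The 3 measured genes that lie before S100a1 on the chromosome, Chtop, Snapin and Ilf2, did not pass the test between media on either design. Their R2i minus PD values over B20 and B18 were -0.06 for Chtop, 0.04 for Snapin and -0.01 for Ilf2. On MouseRef-8 the 3 measured genes after S100a6 were Lor, Sprr2a1 and Lce1c. Lor, the gene of the skin barrier protein loricrin, was called lower in 2i than in PD and higher in R2i than in 2i, the signs of the S100a6 differences. Lor was detected on no 2i array, on 2 of 3 B20 PD arrays and on 1 of 3 B20 R2i arrays, and on no B18 array. It thus passed the filter only through groups where it was higher, so that no p is given. Sprr2a1, Lce1c and Lce3a, the nearest measured gene before S100a11, did not pass between media. Beyond S100a10, Tdpoz2 was called lower in R2i than in 2i (limma adjusted p = 1.5e-04) and higher in 2i than in PD (adjusted p = 0.0042). It was detected on 1 of 3 B20 and 3 of 3 B18 R2i arrays. Tdpoz5 differed with the same signs, but it was detected on 0 of 3 R2i arrays in each line. It was detected on 2 of 2 B20 and 1 of 2 B18 2i arrays, and on 2 of 3 B20 and 0 of 3 B18 PD arrays, so that no p is given. Tdpoz1 did not pass. On MouseWG-6 none of the measured neighbours on either side passed between media. The genes whose pattern was most like that of S100a1 over the 16 arrays were Hebp1 (r = 0.94), Hip1r (r = 0.93) and Ostf1 (r = 0.92). Those most like S100a13 were Ostf1 (r = 0.96), Cd9 (r = 0.92) and S100a1 itself. Over the 6 C17 and B4 arrays Ostf1 correlated with S100a13 at 0.69 and with S100a1 at 0.10.

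S100a6, known as calcyclin for its rise in growing fibroblasts and as a partner of the CacyBP protein, was lowest in 2i among R2i, 2i and PD, and highest in SB among R2i, PD and SB. In B20 it measured 7.31, 6.84 and 6.97 in R2i, 6.60 and 6.21 in 2i, and 7.05, 7.54 and 7.33 in PD. In B18 it measured 6.85, 6.88 and 6.86 in R2i, 5.37 and 6.04 in 2i, and 7.01, 6.88 and 6.92 in PD. In both lines the 2i arrays lay below all arrays of the other media, and R2i and PD overlapped. With CHIR beside PD, 2i minus PD was -1.07 (SE 0.13) over both lines, -0.91 in B20 and -1.23 in B18. R2i minus 2i was 0.90 (SE 0.13). With SB beside PD, R2i minus PD was -0.17 (SE 0.12). The raw S100a6 signal in 2i was 125 to 194, near the negative control means of 94.3 to 103. Without background correction 2i minus PD was -0.55 and R2i minus 2i was 0.44.

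In C17 S100a6 measured 9.05 in R2i, 8.36 in PD and 10.61 in SB. In B4 it measured 8.73 in R2i, 8.39 in PD and 9.74 in SB. SB alone was the highest medium and PD alone the lowest in both lines, with R2i between them. Where PD was present beside SB, R2i minus SB was -1.28 (SE 0.20), being -1.56 in C17 and -1.01 in B4. PD minus SB was -1.80 (SE 0.20), which is 3.48-fold, being -2.25 in C17 and -1.35 in B4. R2i minus PD was 0.51 (SE 0.20) in these lines, against -0.17 in B20 and B18. That difference between the pairs of lines was not tested, since the designs were normalised apart.

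**Figure D3:**
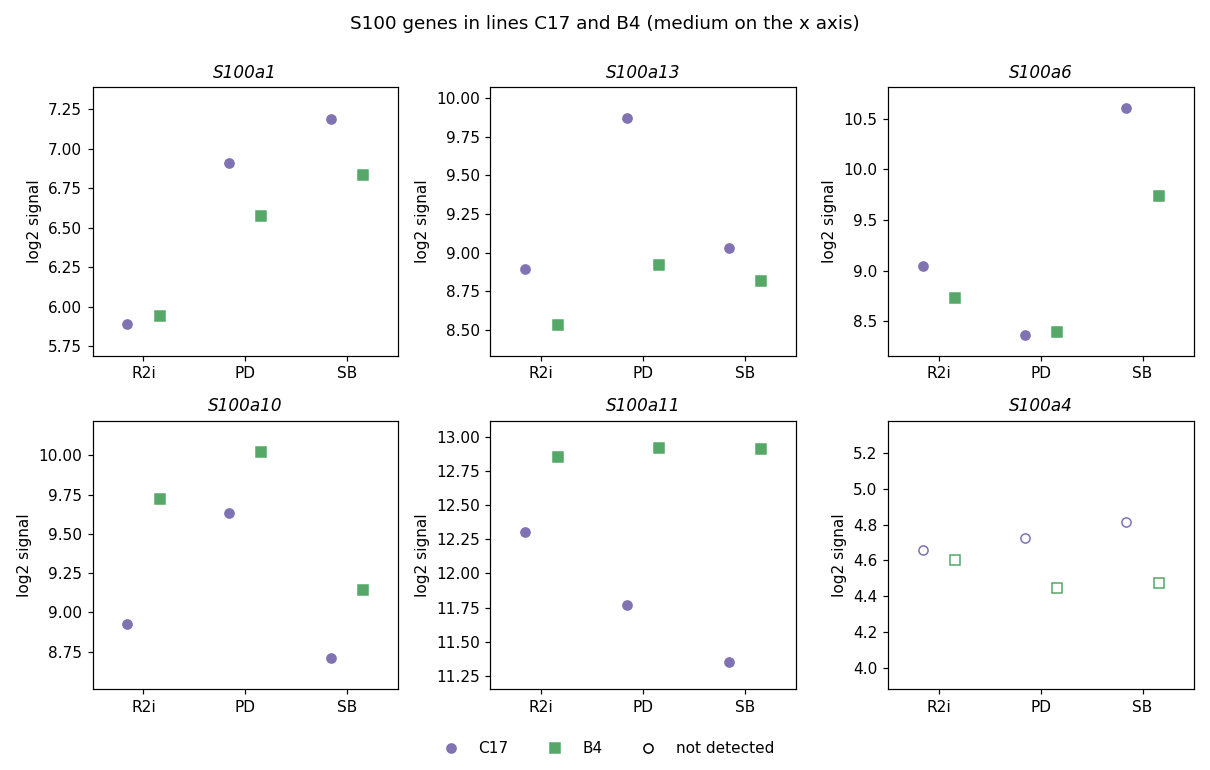
Log2 signal of the 6 S100 genes on each C17 (circles) and B4 (squares) array by medium, with 1 panel per gene and a scale of its own for each panel. Each point is 1 array, and open symbols are not detected. S100a6 is highest in SB, S100a10 is highest in PD, S100a11 is lower in C17 than in B4 in every medium, and S100a4 is not detected.

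Some sums of cell type markers ran like S100a6 and some did not. Of 7 primitive endoderm markers, 3 were detected on at least 1 B20 or B18 array (Gata6, Sox7 and Dab2), while Gata4, Sox17, Foxa2 and Pdgfra were not detected. The summed signal of all 7, which includes the background of those not detected, was 289 to 299 in B20 R2i and 234 to 255 in B18 R2i. It was 211 to 219 in B20 2i and 197 to 199 in B18 2i, and 421 to 487 in B20 PD and 330 to 349 in B18 PD. It was lowest in 2i, as S100a6 was, but it was also lower in R2i than in PD, where S100a6 overlapped. Sox7 had the highest signal of these markers (median 7.14) and weighs most in the sum. Over both lines R2i minus PD was -1.16 for Sox7, -0.02 for Dab2 and 0.45 for Gata6, so the sum does not stand for each marker. The part of the sum in the S100a6 values was not tested. Of 7 trophoblast markers, 4 were detected on the C17 and B4 arrays and Cdx2, Elf5 and Eomes were not. The sum over all 7 of these in C17 was 403 with R2i, 272 with PD and 482 with SB. In B4 it was 417 with R2i, 326 with PD and 576 with SB. The trophoblast sum ran from PD to R2i to SB like S100a6, and its part was not tested. Krt7 within it was lowest in R2i (4.91 in C17 and 4.88 in B4, not detected). Dusp6, a known readout of MEK inhibition, ran in the order of S100a6 too. It measured 8.48 in PD, 9.19 in R2i and 11.05 in SB in C17, and 8.85, 9.15 and 10.56 in B4. On the other design the Dusp6 ranges of the media overlapped in B20. There the trophoblast sum was lowest in 2i in B18, as S100a6 was. In B20 2i it was 312 to 447, which overlapped R2i and PD, unlike S100a6. The endoderm sum in C17 was 208 with R2i, 193 with PD and 228 with SB, in the order of S100a6. In B4 it was 242 with R2i, 213 with PD and 215 with SB, so R2i rather than SB was highest. The arrays measure bulk RNA, so that fewer cells of a type and less RNA per cell cannot be told apart.

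S100a6 was 1.33-fold higher in B20 than in B18 over the 3 media (0.41, SE 0.10, limma adjusted p = 0.006). The comparison of B20 with B18 called 33% of all genes, S100a6 among them, and not S100a10, S100a11, S100a14 or S100a16. By medium the S100a6 difference was 0.18 in R2i, 0.70 in 2i and 0.37 in PD, none of which passed alone (adjusted p = 0.48, 0.056 and 0.13). The response of S100a6 to the media did not pass the test for a difference between B20 and B18. For 2i minus PD that difference was 0.32 (95% interval -0.23 to 0.87). In C17 against B4 S100a6 was 0.39 higher (SE 0.16, adjusted p = 0.094), and leaving out the PD array of either line made it 0.60 (adjusted p = 0.027). The genes most like S100a6 over the 16 arrays were Cish (r = 0.95), the endoderm marker Dab2 (r = 0.91) and Nr1d2 (r = 0.91). Over the 6 C17 and B4 arrays Cish correlated with it at 2.2e-04.

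S100a10, the partner of annexin A2 that holds its binding form without calcium, was lower in R2i than in the other 2 media. In B20 it measured 7.77, 7.83 and 8.08 in R2i, 8.54 and 8.27 in 2i, and 8.50, 8.49 and 8.30 in PD. In B18 it measured 7.61, 7.69 and 7.94 in R2i, 8.22 and 8.53 in 2i, and 8.53, 8.71 and 8.51 in PD. In both lines each R2i array lay below each 2i and PD array, and 2i and PD overlapped. R2i minus PD was -0.69 (SE 0.09, limma adjusted p = 2.6e-05), which is 1.61-fold lower. It was -0.54 in B20 (adjusted p = 0.0098) and -0.84 in B18 (adjusted p = 1.5e-04). R2i minus 2i was -0.57 (SE 0.10, adjusted p = 3e-04), with the call made in each line. For 2i minus PD the difference was -0.12 (95% interval -0.32 to 0.09, adjusted p = 0.43).

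S100a11, which binds annexin A1 and other annexins and is known from human skin cells for a role in growth control, ran the same way with smaller steps. In B20 it measured 11.47, 11.43 and 11.28 in R2i, 11.85 and 11.58 in 2i, and 11.69, 11.65 and 11.40 in PD. In B18 it measured 11.05, 11.29 and 11.21 in R2i, 11.60 and 11.61 in 2i, and 11.55, 11.72 and 11.51 in PD. R2i lay below 2i in both lines and below PD in B18, while in B20 1 PD array reached into the R2i range. R2i minus PD was -0.30 (SE 0.07, limma adjusted p = 0.01), being -0.19 in B20 (adjusted p = 0.31) and -0.41 in B18 (adjusted p = 0.015). R2i minus 2i was -0.37 (SE 0.08, adjusted p = 0.0033), being -0.32 in B20 (adjusted p = 0.076) and -0.42 in B18 (adjusted p = 0.021). For 2i minus PD it was 0.07 (95% interval -0.10 to 0.25, adjusted p = 0.58).

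S100a10 and S100a11 thus both fell in R2i against PD, where 18.8% of all genes were called. Both fell in R2i against 2i, where 27.6% were called. Neither was called, and neither had an unadjusted p below 0.05, in 2i against PD, where 23.6% were called. Their median log2 difference was -0.49 in R2i minus PD and -0.47 in R2i minus 2i, beside 0.01 over all genes in each. For the differences between B20 and B18 in these responses, 0 of 3 genes (S100a6, S100a10 and S100a11) passed, and none had an unadjusted p below 0.05. The shares of all genes called were 4.27% for R2i minus PD, 1.35% for R2i minus 2i and 1.72% for 2i minus PD. The interval for S100a10 in R2i minus PD ran from -0.07 to 0.66, which spans 0. S100a10 and S100a11 did not pass between B20 and B18 (0.01 and 0.10), though both did when arrays were scaled by their medians (0.21 and 0.34, adjusted p = 0.032 and 8.5e-04). That scaling moved the median of all genes to 0.16.

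**Figure D4:**
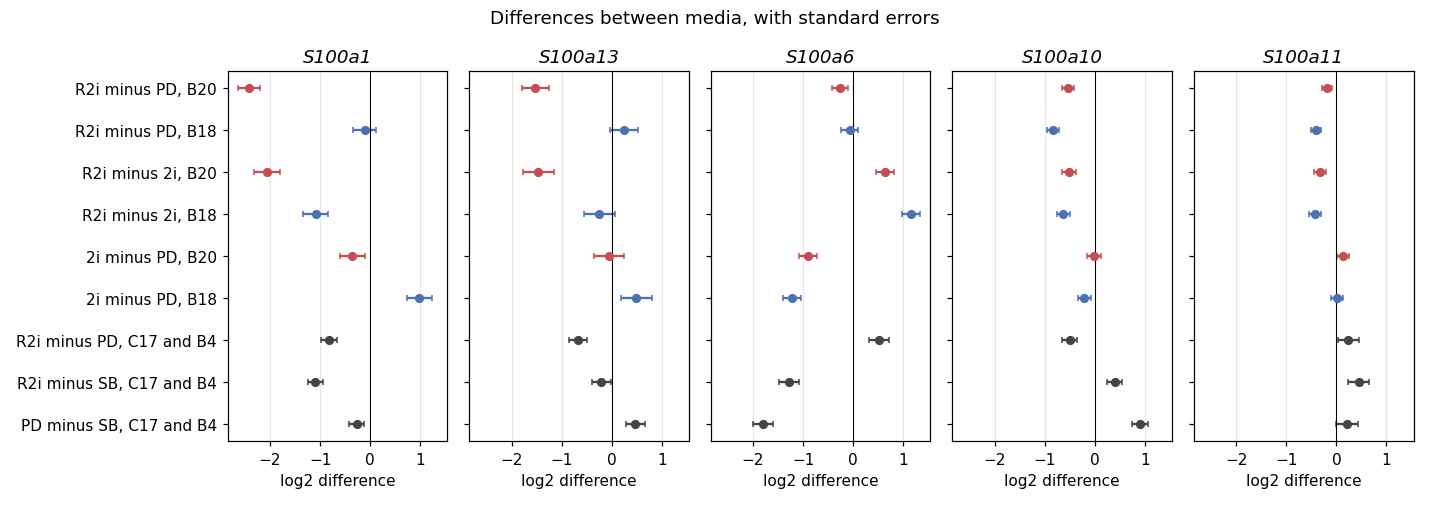
Log2 differences between media (horizontal axis, zero line in black) for the 5 detected S100 genes, in B20 (red), B18 (blue) and C17 with B4 (grey). Bars are standard errors. S100a1 and S100a13 have R2i minus PD differences of -2.42 and -1.53 in B20, against -0.11 and 0.24 in B18, and S100a6 is lower with CHIR beside PD and lower with PD than with SB.

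In C17 S100a10 measured 8.93 in R2i, 9.64 in PD and 8.71 in SB. In B4 it measured 9.72 in R2i, 10.02 in PD and 9.15 in SB. PD was highest and SB lowest in both lines. PD minus SB was 0.90 (SE 0.15, limma adjusted p = 0.0095), which is 1.87-fold, with 0.92 in C17 and 0.88 in B4. S100a10 was called there and S100a11 was not, beside 5.23% of all genes. The adjusted p was 0.11 without the C17 PD array and 0.11 with no filter on dim probes. R2i minus PD for S100a10 was -0.51 (SE 0.15, adjusted p = 0.31) and R2i minus SB was 0.39 (SE 0.15, adjusted p = 0.22). The share of all genes called was 0.136% in R2i minus PD and 2.2% in R2i minus SB. In each of these 2 comparisons 0 of these 2 genes were called by limma, and 1, S100a10, had an unadjusted p below 0.05.

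S100a11 was lower in C17 than in B4. In C17 it measured 12.30 in R2i, 11.77 in PD and 11.35 in SB. In B4 it measured 12.85 in R2i, 12.92 in PD and 12.91 in SB. C17 was lower in every medium. C17 minus B4 was -1.09 (SE 0.17, limma adjusted p = 0.0018), which is 2.12-fold lower, and it was -0.55 in R2i, -1.15 in PD and -1.56 in SB. S100a10 was also lower in C17 (-0.54, SE 0.13, adjusted p = 0.011). Without the R2i array of either line that difference was -0.41 (adjusted p = 0.051). Of S100a6, S100a10 and S100a11, 2 were called between these lines, both lower in C17, where 31.6% of all genes were called. S100a11 did not pass between media in these lines, with R2i minus PD at 0.23 (95% interval -0.24 to 0.70) and R2i minus SB at 0.45 (95% interval -0.02 to 0.92). Within C17 alone R2i minus SB was 0.95, and within B4 it was -0.06.

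The genes most like S100a10 over the 16 B20 and B18 arrays were Abcb1b (r = 0.93), Lefty1 (r = 0.92) and Lefty2 (r = 0.92). Lefty1 and Lefty2 are feedback inhibitors of Nodal signalling, which SB blocks. Over the 6 C17 and B4 arrays Lefty1 correlated with S100a10 at 0.89. Lefty1 was detected on no R2i array of B20 and B18. In C17 Lefty1 measured 4.41 with R2i, 10.80 with PD and 4.42 with SB. In B4 Lefty1 measured 7.68 with R2i, 10.36 with PD and 4.58 with SB. It was detected in B4 R2i but not in C17 R2i. Those most like S100a11 were Ergic1 (r = 0.89), Slc31a1 (r = 0.89) and Pgap6 (r = 0.89), and over the 6 other arrays Slc31a1 correlated with it at -0.55.

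S100a4, known as fibroblast-specific protein and as a partner of non-muscle myosin, was not detected on any of the 22 arrays. Its log2 signal was 4.38 to 4.97 on the B20 and B18 arrays and 4.45 to 4.82 on the C17 and B4 arrays. Its raw signal was 100.2 to 119, and the lowest detection p was 0.015. No level or difference can be read from it. Its promoter window held a TATA box at -31, which 13.6% of windows hold. Of 11 other S100 genes, 9 had a probe on MouseRef-8. S100a14 and S100a16 were detected on 7 of 16 arrays each and the other 7 on none. S100a14 and S100a16 did not pass between these media or between B20 and B18 (R2i minus PD 0.17 and -0.05).

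Annexins, the calcium-dependent membrane proteins that several S100 proteins bind, were called in both directions. Of 12 annexin genes on MouseRef-8, 6 passed the filter. In R2i minus PD 1 rose and 2 fell, in R2i minus 2i 2 rose and 2 fell, and in 2i minus PD 1 rose and 2 fell. Over all genes the shares called were 18.8%, 27.6% and 23.6%. The medians of the 6 annexins were -0.01, 0.01 and -0.04, beside 0.01, 0.01 and -0.01 over all genes. Anxa2 encodes the partner of S100a10. It measured 9.71, 9.58 and 9.74 in R2i, 9.38 and 8.58 in 2i, and 9.19, 9.09 and 9.16 in PD for B20. For B18 it measured 9.84, 10.08 and 10.00 in R2i, 8.69 and 8.89 in 2i, and 9.80, 10.03 and 10.16 in PD. Anxa2 was 0.94 higher in R2i than in 2i (limma adjusted p = 1.9e-05), where S100a10 was lower, and R2i minus PD was 0.25 (adjusted p = 0.12). By line, R2i minus PD was 0.53 in B20 (adjusted p = 0.038), where S100a10 was lower, and -0.02 in B18 (adjusted p = 0.95). In C17 against B4 Anxa2 was called lower, as S100a10 was (-0.54, limma adjusted p = 0.026), while 5 of 7 measured annexins were called higher in C17. The share of all genes called between these lines was 31.6%. Anxa3 was called higher in R2i than in 2i and PD. It was detected on every B20 and B18 array in R2i, on 1 array in B20 2i and 0 in B18 2i, and on 1 of 3 arrays in B20 PD and 3 of 3 in B18 PD, so that no size is given. Anxa5 fell by 0.89 in R2i against 2i and by 0.43 against PD. By line, its R2i minus PD was -0.69 in B20 (limma adjusted p = 3.6e-04) and -0.17 in B18 (adjusted p = 0.29).

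Of 21 further partners and receptors of S100 proteins, 11 passed the filter on MouseRef-8. In R2i minus PD 1 rose (Mdm2, 0.19) and 4 fell, the largest being Ahnak (-0.45, adjusted p = 0.04), a scaffold that S100a10 and annexin A2 bind. In R2i minus 2i 4 rose, among them Cacybp (0.32), and 1 fell. In 2i minus PD 0 rose and 2 fell, Ahnak by 0.70 and Mdm2 by 0.19. Over all genes 18.8% were called in R2i minus PD, 27.6% in R2i minus 2i and 23.6% in 2i minus PD. The medians of the 11 were 0.10, 0.02 and -0.05, beside 0.01, 0.01 and -0.01 over all genes. Cacybp, the S100a6 partner, was -0.13 in 2i minus PD (adjusted p = 0.33). The gene of the S100a4 partner, Myh9, was lower in B20 than in B18 (-0.69, adjusted p = 1.1e-05) and in C17 than in B4 (-0.52, adjusted p = 0.0076). Fgf1, whose protein S100a13 helps to export, was detected on 0 of 3 C17 arrays and on 3 of 3 B4 arrays, at 5.04 to 5.39 in B4, and on none of the B20 and B18 arrays.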

How the data were processed

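Gene expression was measured in 22 samples, 1 array each, on MouseRef-8 v2 (16 arrays, B20 and B18) and MouseWG-6 v2 (6 arrays, C17 and B4). Per the file headers, the authors exported mean bead signal intensity for each probe, and the values were not yet corrected for background or normalised. Beside it the deposited files hold a detection p-value, set against the negative controls of that array. Normalised log2 values deposited by the authors served as an alternative. GenomeStudio and limma are named, with no version, in the submitters' processing notes. The genome build of the probe annotation is not given in the sources used here.

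Intensities were corrected against 798 (MouseRef-8) or 936 (MouseWG-6) negative controls, then quantile normalised, by the neqc function (offset 16) in limma 3.58.1 under R 4.3.3, for each design alone. Probes with a detection p below 0.01 on at least 2 arrays were kept, and the probe with the highest mean stood for its gene. Gene symbols were updated through the RefSeq table of GRCm38.p6. B20 and B18 were fitted with 1 mean per line and medium (10 residual degrees of freedom). For C17 and B4 the model added a line term to a medium term (2 residual degrees of freedom, so that the line is the only replicate). P-values from eBayes were adjusted over all genes after Benjamini and Hochberg, and a call needs an adjusted p below 0.05. The fits were also run on simulated data with independent noise and no differences between lines or chips. That setting is simpler than these arrays. SE is the moderated standard error, intervals are 95%, and fold is 2 to the power of the log2 difference. For each gene the SE and interval rest on a spread shared by all groups of a design, also where a value is for a single line. The labels do not say that replicates were separate cultures, so p-values measure the spread between arrays, which may be technical. The number of arrays limits the precision. Replicate numbers were not used to pair the samples. Of 36 pairs of same-numbered arrays, 2 had deviations from their group means that correlated above 0.1 (median 0.01). Such deviations cancel within a group, so the pairs are not separate and cannot exclude a pairing.

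The members and gene lists were chosen with earlier results of these data known. Named genes are the members, the 3 most correlated genes per member, up to 4 called genes of each list with the largest changes, known readouts of the inhibitors, the neighbours of S100a1, and genes named in counts after their values were seen.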

Additional observations from a re-analysis of the deposited data

Results flagged for a closer look

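S100a1 and S100a13 were singled out because their difference between B20 and B18 changed sign with the medium on every array, which was not tested because both genes were chosen for it. For S100a1 every B20 array was below every B18 array in R2i and above every B18 array in PD, and B20 minus B18 in R2i less B20 minus B18 in PD was -2.31 log2 units. Against 2i, where both B20 arrays were above both B18 arrays, the same measure for S100a1 was -0.97. For S100a13 every B20 array was below every B18 array in R2i and above every B18 array in PD, and the same measure against PD was -1.77.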

How the results depend on the processing

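S100a10 and S100a11 were called lower in R2i than in PD and in 2i under all 23 alternatives for B20 and B18 (S100a10 between -0.76 and -0.43, S100a11 between -0.44 and -0.26), and S100a6 higher in B20 than in B18 (0.21 to 0.55, adjusted p 3.1e-04 to 0.026). S100a11 was called lower in C17 under all 12 alternatives (-1.35 to -0.85). The untested values kept their sign under these alternatives for S100a1 in all comparisons and for S100a6 in all between media. S100a13 changed sign when 1 array was left out: 2i minus PD was -0.12 without B20 2i replicate 1, its difference between B20 and B18 was 0.13 without B20 2i replicate 2, and R2i minus SB was 0.01 without B4 SB. Calls that changed are given beside their results. With the replicate number as a block, R2i minus PD called 1642 genes, S100a10 was at -0.69 and S100a11 at -0.30 (adjusted p = 0.011), and no call of an S100 gene changed. The number of all genes called moved with the setting. Without background correction it was 244 (158 otherwise) for the difference between B20 and B18 in 2i minus PD, and in C17 and B4 7 (15) for R2i minus PD, 111 (242) for R2i minus SB and 352 (576) for PD minus SB. With no filter on dim probes the differences between B20 and B18 called 79 genes (124) for R2i minus 2i and 96 for 2i minus PD, and C17 and B4 gave 0 for R2i minus PD, 0 for R2i minus SB, 2 for PD minus SB and 2252 (3480) between lines. Median scaling gave 26 for R2i minus PD in C17 and B4. With each array left out in turn, B20 and B18 called 1382 to 1819 genes for R2i minus PD, 1901 to 2717 for R2i minus 2i, 1725 to 2284 for 2i minus PD and 2352 to 3120 between lines. The differences between these lines called 192 to 767 for R2i minus PD, 25 to 224 for R2i minus 2i and 48 to 425 for 2i minus PD. C17 and B4 called 5 to 116 for R2i minus PD, 46 to 565 for R2i minus SB, 187 to 728 for PD minus SB and 1996 to 3093 between lines. The cause was not tested. S100a4, near the negative controls, is limited by its signal over background.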
